A study of Mus musculus with 3 samples.

Results

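The Kruppel-like factors described here are 10 genes, *Klf2*, *Klf3*, *Klf4*, *Klf6*, *Klf7*, *Klf9*, *Klf10*, *Klf11*, *Klf13* and *Klf15*. They were chosen by their symbols from the 24346 genes of the deposited expression table, with earlier results of these data known. All 10 had a row. Their transcripts were measured by bulk RNA-seq in endothelial cells (ECs) of the adult lung, purified by fluorescence-activated cell sorting from male wild type C57BL/6J mice aged 6 to 8 weeks and used fresh, without culture. The sort kept cells that carried CD31 and VE-cadherin, the latter labelled by antibody injected before death, and left out cells with CD45 or podoplanin. There were 3 libraries, named S38, S44 and S52, all of 1 condition, so nothing was compared between organs, ages or treatments, and the labels do not say whether each library came from a separate animal. Values are FPKM, fragments normalised for transcript length and library total, which allow levels of different genes to be set side by side.

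Kruppel-like factors are transcription factors that bind GC-rich and CACCC-type DNA elements through a block of zinc fingers at the C-terminal end of the protein. They are usually divided by the partners of their N-terminal part. *Klf2*, *Klf4*, *Klf6* and *Klf7* belong to a branch that mostly activates transcription, *Klf3* recruits the corepressor CtBP, and *Klf9*, *Klf10*, *Klf11* and *Klf13* recruit the corepressor Sin3A. In endothelium *Klf2* and *Klf4* are known as genes induced by laminar blood flow through a kinase cascade (Map3k3, Map2k5, Mapk7) and MEF2 factors, and as regulators of vascular tone, clotting and leukocyte adhesion.

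The sequences upstream of *Klf2* and *Klf4* are shown because these genes had the highest levels of the family and are the ones that flow regulates. Both are the 250 bases before the RefSeq transcription start on GRCm38.p6, written on the strand of the gene, at chr8:72318812-72319061 on the plus strand for *Klf2* and chr4:55532476-55532725 on the minus strand for *Klf4*. Capitals mark GC boxes (GGGCGG) and CACCC boxes, each on either strand, and matches to the MEF2 consensus.
Klf2: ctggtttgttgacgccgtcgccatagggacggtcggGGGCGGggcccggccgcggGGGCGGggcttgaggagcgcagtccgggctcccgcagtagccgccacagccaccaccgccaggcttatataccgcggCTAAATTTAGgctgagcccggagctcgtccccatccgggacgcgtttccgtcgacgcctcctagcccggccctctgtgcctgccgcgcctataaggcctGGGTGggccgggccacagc
Klf4: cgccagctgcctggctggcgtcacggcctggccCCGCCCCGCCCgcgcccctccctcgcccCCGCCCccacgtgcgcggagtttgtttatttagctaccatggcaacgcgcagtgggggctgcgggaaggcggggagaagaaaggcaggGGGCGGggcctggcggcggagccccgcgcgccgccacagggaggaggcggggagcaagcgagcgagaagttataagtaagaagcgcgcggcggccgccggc

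The *Klf2* sequence held 2 GC boxes, 1 CACCC box and 1 MEF2 match, CTAAATTTAG, whose first base lay 118 bases before the start. The *Klf4* sequence held 4 GC boxes, 2 of which share a base, and neither a CACCC box nor a MEF2 match. Of 32851 RefSeq promoters cut to the same length, 32.7% held a GC box, 52% a CACCC box and 2.92% a MEF2 match on either strand. The MEF2 consensus was added to the search after the *Klf2* sequence had been seen. RefSeq sequences were found for 9 of the 10 members, and *Klf10* had none. Of these 9 promoters, 8 held a GC box (the exception was *Klf9*), 6 a CACCC box, and only that of *Klf2* a MEF2 match. The 9 promoters were rich in G and C, from 59.2% in *Klf7* to 78.4% in *Klf3*, against a median of 52.4% over all promoters. RefSeq starts were not always those of GENCODE M21. The sequences of *Klf2*, *Klf3*, *Klf6* and *Klf11* ran into the GENCODE gene, and that of *Klf7* lay wholly inside it. The CACCC box of *Klf2*, whose first base lay 19 bases before the RefSeq start, fell inside the GENCODE gene. A match of letters is a description of the sequence, and no binding was measured in these data.

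All 10 Kruppel-like factors were detected in lung ECs at a mean of at least 1 FPKM, a level reached by 48.3% of all genes in the table. Since the members were chosen with earlier results known, this count describes the chosen genes and not the Klf family as a whole. Their means ran from 1.83 FPKM for *Klf15* to 305 FPKM for *Klf4*, with a median of 39.0 FPKM, and 9 of the 10 were at 10 FPKM or above. Summed over the members, the family reached 806 (S38), 794 (S44) and 871 (S52) FPKM. *Klf2* and *Klf4* together took 64.2%, 59.3% and 60.2% of that sum, or 61.2% ± 2.58 (SD, n = 3 libraries), so that the other 8 genes shared the remainder.

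**Figure D1:**
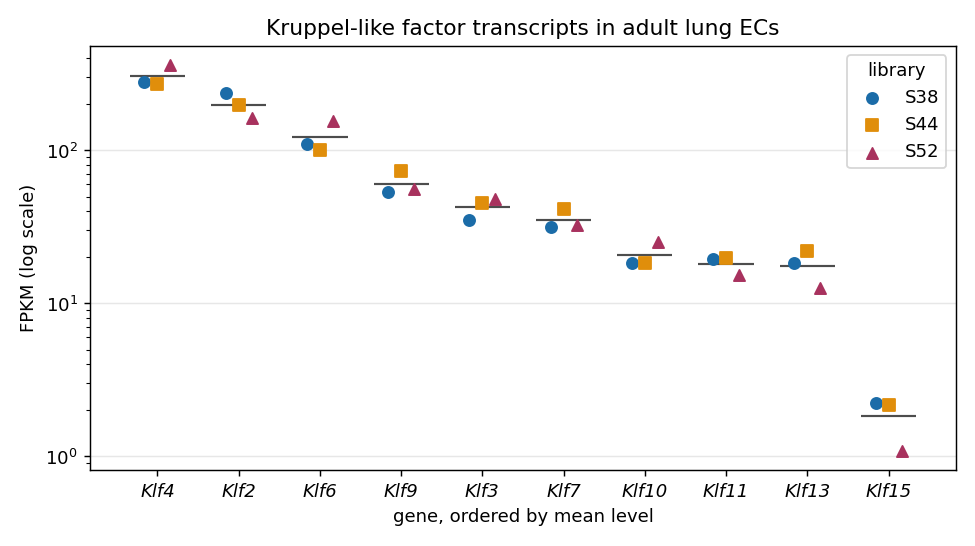
Level of each Kruppel-like factor in each library of adult lung ECs, as FPKM on a log axis, with genes ordered by their mean (horizontal line) and 1 point per library. *Klf4*, *Klf2* and *Klf6* stand above 100 FPKM in every library and *Klf15* lies near 1 to 2 FPKM.

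*Klf4*, which restrains inflammatory activation of endothelium, was the highest member in every library. Its level was 281 FPKM for S38, 273 for S44 and 361 for S52, with a mean of 305 ± 48.5 FPKM (SD, n = 3). Its mean was above that of 98.6% of genes in the table. S38 and S44 were close to each other and S52 was the high one, with a mean of 277 FPKM when S52 was left out. In GENCODE M21 it occupies chromosome 4 of GRCm38 between 55527143 and 55532466, minus strand, in 5 exons.

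*Klf2*, which promotes nitric oxide synthesis and an anticoagulant surface in ECs, was the second member in every library. Its level was 236 FPKM for S38, 198 for S44 and 164 for S52, with a mean of 199 ± 36.2 FPKM (SD, n = 3), and 217 FPKM without S52. Here S52 was the low library, and the value of S38 was 1.44 times that of S52. *Klf2* occupies chromosome 8 between 72319033 and 72321656, plus strand, with a single annotated transcript of 3 exons. The ratio of *Klf4* to *Klf2*, which does not depend on how a library was scaled, went from 1.19 for S38 through 1.38 for S44 to 2.2 for S52.

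*Klf6*, an early response gene of injured endothelium, measured 111 FPKM for S38, 101 for S44 and 156 for S52, with a mean of 122 ± 29.6 FPKM (SD, n = 3). Like *Klf4*, it was highest in S52, and its mean without S52 was 106 FPKM. In S52 it came within a small margin of *Klf2*, with a ratio of 0.953 to *Klf2* against 0.468 in S38 and 0.508 in S44. Its ratio to *Klf4* moved less, since *Klf4* was 2.54, 2.71 and 2.31 times as high as *Klf6* in S38, S44 and S52. *Klf6* lies on chromosome 13, from 5861482 to 5870394, plus strand. *Klf7*, the remaining member of the activating branch and best known from neurons, measured 31.5 FPKM for S38, 41.5 for S44 and 32.3 for S52, with a mean of 35.1 ± 5.55 FPKM (SD, n = 3), and S44 was its high library.

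*Klf3*, the CtBP-dependent repressor of the set, measured 34.9 FPKM for S38, 45.7 for S44 and 48.1 for S52, with a mean of 42.9 ± 7.06 FPKM (SD, n = 3). S38 was the low library. *Klf3* (chromosome 5, 64803388 to 64832901, plus strand) and *Klf7* (chromosome 1, 64029447 to 64122282, minus strand) are the members that overlap other genes of the annotation, Gm20033 for *Klf3* and Gm13748 and Gm26649 for *Klf7*, each on the opposite strand. The libraries were not stranded, so reads from such partners cannot be told apart from those of the Klf gene. Of the read-length windows of 51 bases in the annotated transcripts, 38.2% in *Klf7* and 3.43% in *Klf3* also occur in transcripts of other genes, against at most 0.23% in any other member. In *Klf2*, *Klf6*, *Klf9*, *Klf10*, *Klf11* and *Klf15* there were 0 such windows.

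The Sin3A-binding branch was led by *Klf9*, a gene induced by glucocorticoid and thyroid hormone. Its level was 53.6 FPKM for S38, 73.0 for S44 and 55.7 for S52, with a mean of 60.8 ± 10.7 FPKM (SD, n = 3), with S44 as the high library. The other 3 members of the branch were lower and close to each other. *Klf10*, an early gene of TGF-beta signalling, was at 18.5 (S38), 18.4 (S44) and 25.2 (S52) FPKM, a mean of 20.7 ± 3.91 FPKM (SD, n = 3), and was highest in S52. *Klf11*, the closest relative of *Klf10*, went the other way, at 19.6, 19.8 and 15.3 FPKM, a mean of 18.2 ± 2.57 FPKM (SD, n = 3). *Klf13* was at 18.3, 21.9 and 12.7 FPKM, a mean of 17.6 ± 4.66 FPKM (SD, n = 3), and was also lowest in S52. The ratio of *Klf10* to *Klf13* was near 1 in S38 and S44, at 1.01 and 0.840, and 1.99 in S52.

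*Klf15*, a glucocorticoid-responsive regulator of amino acid and glucose metabolism, was the lowest member in every library. Its level was 2.23 FPKM for S38, 2.17 for S44 and 1.09 for S52, with a mean of 1.83 ± 0.643 FPKM (SD, n = 3). S52 was low and the other 2 libraries nearly coincided. At the estimated depths and the length of its longest basic transcript (2482 bp), these values stand for about 196, 196 and 86.3 fragments. The SD from counting alone is then 7.14%, 7.13% and 10.8%, smaller than the difference between S52 and the others.

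The order of the mean levels was *Klf4*, *Klf2*, *Klf6*, *Klf9*, *Klf3*, *Klf7*, *Klf10*, *Klf11*, *Klf13* and *Klf15*. Of the 9 pairs of neighbours in it, 7 were in the same order in all 3 libraries. *Klf10* and *Klf11* kept the order of their means in 1 library only, S52, and *Klf11* and *Klf13* in 2, S38 and S52, so these 3 genes were not separated beyond the spread between libraries. A two-sided exact permutation test on log2(FPKM + 1), flipping the signs of the 3 paired differences, gave p = 0.25 for each of the 7 ordered pairs (adjusted p = 0.321 over 9 pairs), which is the smallest p-value that 3 libraries allow, and p = 1 and p = 0.75 for the others. The widest step was between *Klf13* and *Klf15*, a mean log2 difference of 2.72 ± 0.14 (SD, n = 3), and it was the only neighbour step larger than 2 SD of the paired differences. *Klf4* over *Klf2*, at 0.62 ± 0.46, and *Klf2* over *Klf6*, at 0.71 ± 0.56 on the same log2 scale, were ordered alike in each library but varied in size.

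The rest of the Klf family and the related Sp factors were mostly low in these cells. Of the other 7 Klf genes, 2 were detected at a mean of 1 FPKM, against 48.3% of all genes in the table, and none had a mean of 10 FPKM. They were *Klf16*, a Sin3A-binding member, at 7.90 (S38), 7.71 (S44) and 10.2 (S52) FPKM, and *Klf12*, a CtBP-binding repressor, at 2.79, 3.01 and 1.78 FPKM. *Klf14* and *Klf17* were listed at 0 in all 3 libraries. *Klf1*, the erythroid member, was listed at 0 in S38 and S44 and at 0.192 FPKM in S52. Among 9 Sp factors, which share the zinc finger domain, 4 were detected, close to the same 48.3%. They were led by the broadly expressed *Sp3* at 30.6 ± 2.44 FPKM and *Sp1* at 18 ± 1.19 FPKM (SD, n = 3 for each). The levels of *Sp3* thus overlapped those of *Klf7*, and those of *Sp1* fell among *Klf10*, *Klf11* and *Klf13*.

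**Figure D2:**
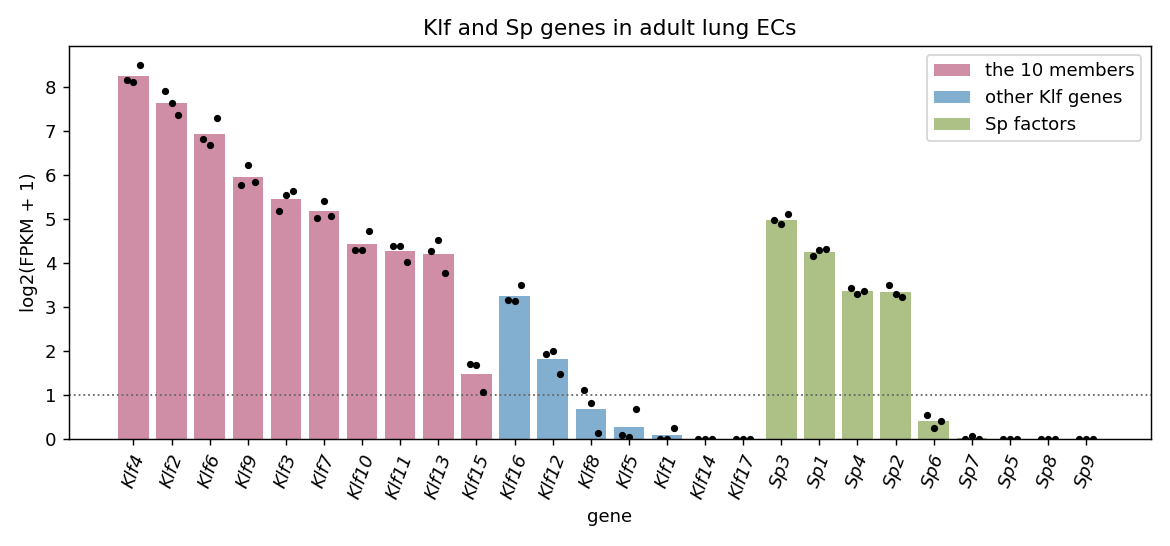
Mean log2(FPKM + 1) of the 10 members, the other Klf genes and the Sp factors (bars) with 1 dot per library of adult lung ECs, and the level of 1 FPKM dotted. Apart from *Klf15*, every member stands above every other Klf gene shown, but the members were chosen with earlier results of these data known. *Sp3* is the highest Sp factor.

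The members varied between libraries about as much as all detected genes did. They varied somewhat more than genes at a mean of 10 FPKM or above, the level of 9 of the 10 members. The median ratio of highest to lowest library was 1.37 for the members and 1.30 for genes at that level. The median coefficient of variation over the 10 genes was 17.9%, against 17.6% over the 11770 genes detected and 13.9% over the 6269 genes at a mean of 10 FPKM or above. Only *Klf15*, or 1 of 10, differed over 2-fold between its highest and lowest library, at 2.05-fold, against 20.1% of all detected genes. The other 9 ranged from 1.30-fold in *Klf11* to 1.73-fold in *Klf13*. Without S38, or without S52, no member passed 2-fold.

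S52 stood apart from S38 and S44 in transcripts of other lung cells. All 4 platelet genes examined (*Ppbp*, *Pf4*, *Itga2b* and *Gp9*) were lowest there, with summed levels of 1692 (S38), 1345 (S44) and 38 (S52) FPKM. The 5 alveolar type 2 genes, with sums of 3756, 3156 and 760 FPKM, and the 5 airway genes, with sums of 2780, 2316 and 401 FPKM, were all lowest in S52 too, and *Bpifa1* of the airway list was listed at 0 there. Leukocyte genes summed to 1074, 807 and 169 FPKM, with *Cd3e* listed at 0 in S52. Sums were 337, 468 and 94.5 FPKM for the 3 erythroid genes and 73.1, 56.0 and 41.9 FPKM for the 4 fibroblast genes, of which 2 were lowest in S52. The fall of the erythroid sum came mostly from 1 gene. The other erythroid genes fell less in FPKM, *Hba-a1* at 147, 147 and 91.0 FPKM and *Alas2* at 4.37, 13.9 and 3.56 FPKM. Over all detected genes, 46.3% were lowest and 33.9% highest in S52. Mural genes did not follow these lists, since 3 of 4 (*Pdgfrb*, *Cspg4* and *Rgs5*) were highest in S52, with medians of 6.11, 4.05 and 9.59 FPKM. The mural sums of 103, 55.5 and 101 FPKM came mostly from *Acta2*, at 90.3, 46.7 and 79.7 FPKM. The 10 endothelial markers did not share this pattern, with medians of 482, 533 and 484 FPKM, but single genes moved in both directions. Of these 10, 3 were lowest in S52, among them *Kdr* at 380, 360 and 237 FPKM. Another 3 were highest there, among them *Emcn* at 156, 181 and 267 FPKM. Estimated depth was similar, at about 37750000, 39000000 and 34350000 fragments in S38, S44 and S52.

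Against that background the Kruppel-like factors were divided. *Klf3*, *Klf4*, *Klf6* and *Klf10* were highest in S52, or 4 of 10, against 33.9% of detected genes. *Klf2*, *Klf11*, *Klf13* and *Klf15* were lowest there, again 4 of 10, against 46.3% of detected genes, and *Klf7* and *Klf9* lay between the other libraries, although they too were lowest in S52 once each library was rescaled to the same sum over all genes. Both shares were close to those of all genes. On the log2(FPKM + 1) scale the difference of S52 ran from 0.49 for *Klf6* to -0.63 for *Klf15* against S38, and from 0.63 for *Klf6* to -0.74 for *Klf13* against S44. The interquartile range of detected genes lay between -0.42 and 0.21 against S38 and between -0.38 and 0.24 against S44. The part that platelet, epithelial, leukocyte or mural RNA played in these differences was not tested, and in sorted bulk RNA fewer cells of a type cannot be told apart from less RNA per cell.

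**Figure D3:**
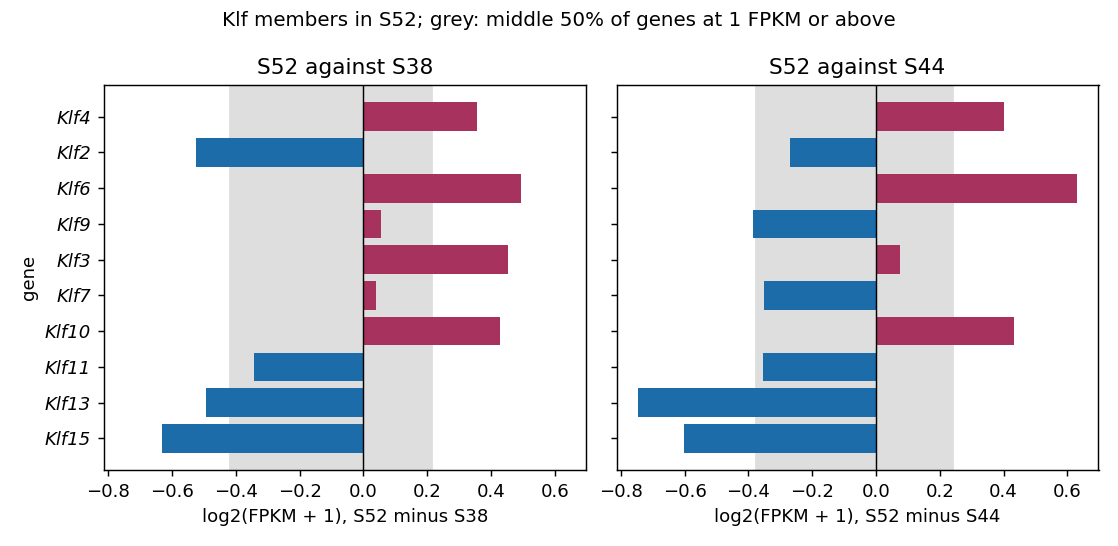
Difference in log2(FPKM + 1) between S52 and S38 (left) and between S52 and S44 (right) for each Kruppel-like factor, with red bars where S52 was higher, blue bars where it was lower and the middle 50% of genes detected at 1 FPKM in grey. *Klf4*, *Klf6* and *Klf10* extend to the right of the grey band in both panels, and *Klf13* and *Klf15* to the left.

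Ratios between members within a library differed in how far they varied. Of the 45 pairs, 12 had a ratio that varied over 2-fold between libraries. The same share over pairs of all detected genes was not computed, so this count cannot be called high or low. Among the 12 were the pairs of *Klf15*, the lowest member, with *Klf3*, *Klf4*, *Klf6*, *Klf7*, *Klf9* and *Klf10*. The steadiest was *Klf7* to *Klf9*, at 0.587, 0.568 and 0.581 in S38, S44 and S52, followed by *Klf4* to *Klf10*, at 15.2, 14.8 and 14.3. The least steady was *Klf6* to *Klf15*, at 49.6, 46.4 and 144. These pairs were picked after all 45 ratios had been seen, and with 3 libraries they describe these samples only.

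**Figure D4:**
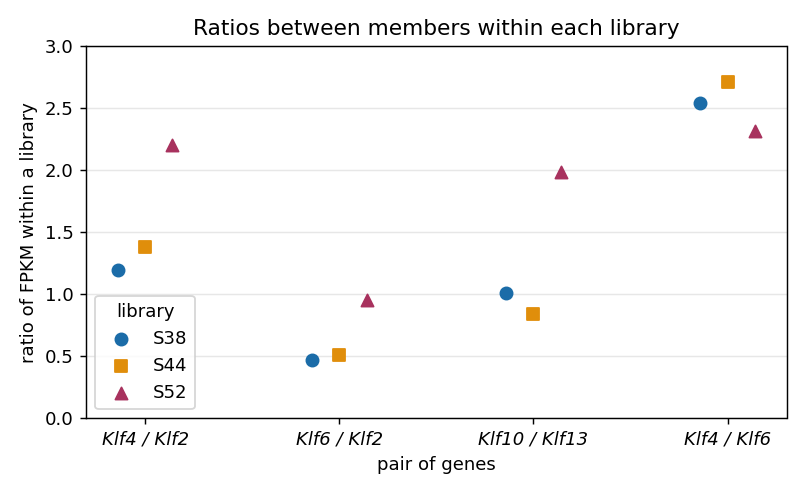
Ratio of FPKM between 2 Kruppel-like factors within each library, with 1 point per library. *Klf4* to *Klf2*, *Klf6* to *Klf2* and *Klf10* to *Klf13* are highest in S52, and *Klf4* to *Klf6* stays between 2.31 and 2.71.

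Genes known to act above *Klf2* and *Klf4* were all present. All 10 genes of that list were detected, against 48.3% of all genes in the table, with a median of 16.6 FPKM. Of these, 0 differed over 2-fold between libraries, against 20.1% of all detected genes. The list was chosen with earlier results known, so its counts describe the chosen genes only. The kinase gene *Map3k3*, the first of the cascade, was at 64.8 (S38), 67.4 (S44) and 73.9 (S52) FPKM. *Map2k5*, which encodes the next kinase, was at 12.8 ± 0.902 FPKM and *Mapk7*, the last, at 7.84 ± 1.03 FPKM (SD, n = 3 for each). Among the MEF2 factors that the cascade activates, *Mef2a* was highest at 60.7 ± 5.71 FPKM, above *Mef2d* at 14.5 ± 2.53 FPKM and *Mef2c* at 12.5 ± 0.649 FPKM (SD, n = 3 for each). *Krit1*, *Ccm2* and *Pdcd10*, whose products form the cerebral cavernous malformation complex that restrains this cascade, were at 8.95 ± 1.07, 18.8 ± 4.30 and 64.9 ± 10.1 FPKM, and *Heg1*, the membrane receptor of that complex, at 57.2 ± 1.80 FPKM (SD, n = 3 for each).

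Genes that *Klf2* or *Klf4* are known to raise were detected in 6 of 6 cases, against 48.3% of all genes in the table. *Aqp1*, a water channel, was at 2019 (S38), 2301 (S44) and 1734 (S52) FPKM. *Thbd*, the thrombomodulin gene, was at 890, 1121 and 444 FPKM, over 2-fold lower in S52 than in either other library, and *S1pr1*, the sphingosine-1-phosphate receptor, at 479, 501 and 317 FPKM. *Nqo1*, an antioxidant enzyme gene, had the widest range of the list, 7.64-fold, at 4.51, 4.25 and 0.590 FPKM. These 4 of the 6 genes were lowest in S52, against 46.3% of all detected genes, and a list this short cannot separate the 2 shares. *Nos3*, the endothelial nitric oxide synthase, was level at 19.2, 19.1 and 21.2 FPKM, and *Gja4*, a connexin gene, was highest in S52 at 58.1, 88.7 and 112 FPKM. Genes that these factors are known to lower were detected in 7 of 7 cases, against the same 48.3%. Their median was 15.9 FPKM, far below the 259 FPKM of the first list. They included *Edn1*, the endothelin-1 precursor, at 75.6, 42.4 and 96.7 FPKM, and *Vcam1*, a leukocyte adhesion molecule, at 39.1, 51.3 and 42.5 FPKM. Regulation by either factor was not measured, and 3 libraries are too few for a correlation with *Klf2* or *Klf4*.

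The cofactor genes were detected in 9 of 9 cases, against 48.3% of all genes in the table. Of these 9, 0 were over 2-fold between libraries, against 20.1% of all detected genes. *Ctbp1*, the partner of *Klf3*, was at 68.9 ± 4.63 FPKM and *Ctbp2* at 28.5 ± 5.80 FPKM (SD, n = 3 for each). *Sin3b* was at 39.2 ± 2.36 FPKM and *Sin3a*, the partner of *Klf9* and its relatives, at 14.7 ± 3.49 FPKM (SD, n = 3 for each). Of the glucocorticoid list, fixed because *Klf9* and *Klf15* respond to this hormone, 7 of 7 genes were detected, against the same 48.3%. The receptor gene *Nr3c1* was at 33.5 ± 3.89 FPKM (SD, n = 3). *Tsc22d3*, a classical target, was at 125 (S38), 104 (S44) and 88.2 (S52) FPKM, and *Per1* at 35.9, 44.7 and 21 FPKM. *Sgk1*, a kinase gene, went the other way at 213, 182 and 385 FPKM, over 2-fold between libraries. In all, 4 of the 7 genes were lowest in S52 and 2, *Sgk1* and *Zbtb16*, were highest there, against 46.3% and 33.9% of all detected genes. *Dusp1*, which is also an immediate-early gene, led the list at 413 ± 41 FPKM (SD, n = 3).

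*Klf2*, *Klf4*, *Klf6* and *Klf10* are themselves genes that respond within minutes to many stimuli, and enzymatic dissociation preceded the sort. The 9 genes of the dissociation stress list were all detected, against 48.3% of all genes in the table. Their medians were 271 (S38), 384 (S44) and 363 (S52) FPKM, and their summed levels 3325, 4144 and 4866 FPKM. Of these 9 genes, 3 were highest in S52, against 33.9% of detected genes. They were *Fos*, *Fosb*, at 219, 187 and 393 FPKM, and *Ier3*, at 884, 1124 and 1873 FPKM. Every other gene of the list was highest in S44. Lowest in S52 were 2 genes, *Hspa1b* and *Jun*, the latter at 380, 415 and 336 FPKM, against 46.3% of detected genes. The part that dissociation played in the Klf levels was not tested, since every library was dissociated.

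**Figure D5:**
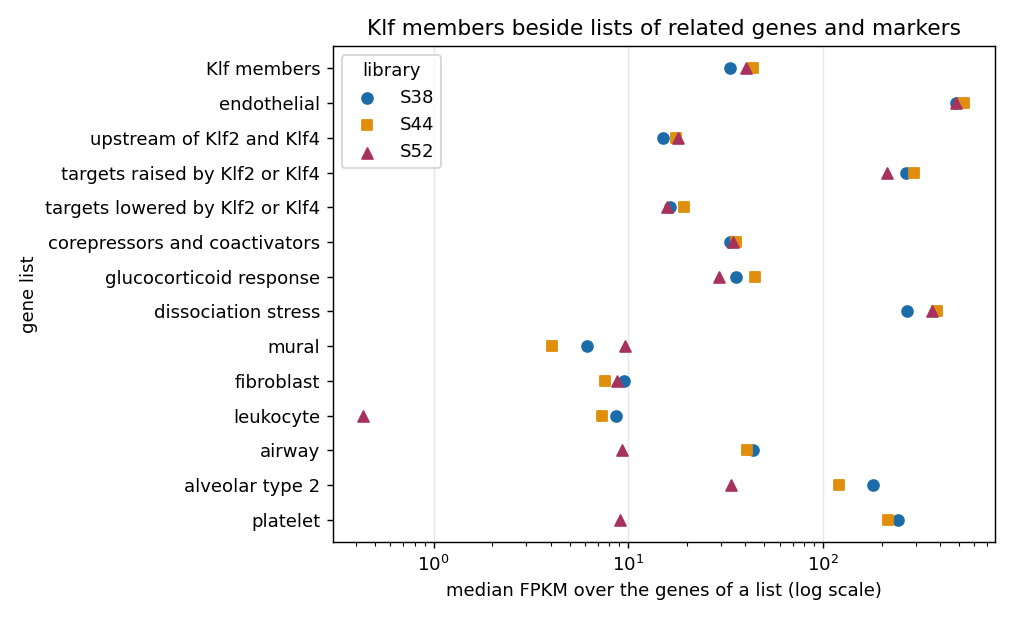
Median FPKM (log axis) over the genes of each list in each library, for the Klf members, their upstream genes, targets and cofactors, and for markers of other cells. The platelet, alveolar type 2, airway and leukocyte medians are lowest in S52.

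The genes whose levels across the 3 libraries lay nearest to *Klf2* and *Klf4*, by Euclidean distance of log2(FPKM + 1) among 6155 genes at a mean of at least 10 FPKM, short noncoding genes left out, were as follows. Nearest to *Klf2* were *Usmg5*, at 216 (S38), 206 (S44) and 163 (S52) FPKM (distance 0.14), *Atox1* (0.15) and *Shfm1* (0.17). Nearest to *Klf4* were *Snhg1*, at 274, 279 and 382 FPKM (distance 0.10), *Atp5h* (0.10) and *Rpl23* (0.12). With 3 libraries, likeness of this kind means a similar level and a similar spread.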

How the data were processed

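FPKM values of 3 libraries, 1 row for each gene symbol, were deposited by the authors on the mm10 genome. They came from non-stranded poly-A selected libraries read as pairs of 51 bp. The submitters' processing notes name Trimmomatic 0.36, TopHat2 2.1.0 and Cufflinks 2.2.1, whereas the paper describes STAR and HTSeq, so the tool behind the FPKM values and the gene annotation are not given in the sources used here. FPKM depends on the transcript length assumed and on the library total, and short noncoding genes took 59.6% to 70.2% of each column. Columns of samples left out numbered 0.

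Values were used as deposited with pandas 2.3.3. No count model was fitted. Detection was a mean of at least 1 FPKM, and logs used a pseudocount of 1. Neighbouring levels were compared by an exact sign-flip permutation test. Depth was estimated from 2700 genes with a single GENCODE M21 transcript, by searching the step that makes low FPKM values whole fragments: 78.2%, 79.5% and 78.1% of 179, 244 and 96 low values were whole to within 0.15, with the step fitted to these values. The estimate covers counting error only. The search recovered known depths from simulated libraries, but these were drawn from the same model of whole fragments that the search assumes. Such libraries test the search and cannot show whether the deposited values follow that model. At these depths 3 fragments of *Klf15* correspond to 0.0341, 0.0331 and 0.0378 FPKM. Gene positions were taken from GENCODE M21 (GRCm38) and promoters from RefSeq (GRCm38.p6).

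Members and gene lists were chosen with earlier results of these data known. Named genes are the 10 members, genes of the fixed lists (the 3 highest and those a sentence turns on) and the 3 genes nearest to *Klf2* and to *Klf4*. The values of 1 listed gene are not reported here. Alternatives were rescaling, leaving out each library, other thresholds and pseudocounts, and the median in place of the mean.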

Additional observations from a re-analysis of the deposited data

How the results depend on the processing

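Rescaling changed levels, and rescaling to the same sum over all genes also changed which library was highest or lowest. Under it 7 of the 10 members kept their lowest library and 6 their highest. *Klf7*, *Klf9*, *Klf11* and *Klf13* were then highest in S38 in place of S44, and *Klf3* was lowest in S44 in place of S38. Under each of the other rescalings all 10 kept their lowest library and 9 their highest. The median level of the members moved from 39.0 to 28.1 when each library was set to the same sum over all genes, and to 82.5 when short noncoding genes were left out of the sum, because both set a new total. Relative to S38, the first rescaling shifted S44 by -0.47 and S52 by -0.30 on the log2 scale, and *Klf7* and *Klf9* then joined *Klf2*, *Klf11*, *Klf13* and *Klf15* as lowest in S52, 6 members in place of 4. *Klf3*, *Klf4*, *Klf6* and *Klf10* were highest in S52 under each of the 3 rescalings. The number of members over 2-fold between libraries lay between 0 and 1 when a library was left out, and was 0 with a pseudocount of 0.1 or 1. Asking for a mean log2 difference over 2 SD left 1 ordered pair of neighbours in place of 7. With a library left out, ordered pairs numbered 7 to 8, the median level 36.7 to 41.9 FPKM and the share of *Klf2* and *Klf4* 59.8% to 62.2%. Detection of all 10 members held at 0.1 FPKM and with 1 FPKM in every library, and 9 passed 10 FPKM. With 3 libraries the exact sign-flip test cannot give a p-value below 0.25, whatever the size of a difference.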

Other observations

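*Klf5*, a Kruppel-like factor of airway and gut epithelium, and *Klf8*, a CtBP-binding member, were both below 1 FPKM on average and differed between libraries in opposite directions. *Klf5* measured 0.0671 (S38), 0.0327 (S44) and 0.600 (S52) FPKM, which stand for about 8.11, 4.07 and 65.6 fragments at the estimated depths. *Klf8* was at 1.14, 0.743 and 0.0957 FPKM, or about 199, 133 and 15.1 fragments. *Klf5* was thus highest in the library where the 5 airway and 5 alveolar type 2 genes were lowest. *Klf1* in S52 stood for about 8.98 fragments, while the erythroid gene *Alas2* was at 4.37 (S38), 13.9 (S44) and 3.56 (S52) FPKM. The source of these transcripts was not tested.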
